A study of Mus musculus with 12 samples.

Results

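The dependence of the cardiac effect of diabetes on pargyline was measured as an interaction, the difference between D + P and C + P minus the difference between D and C. All 12 of the 12 arrays of the series enter it, 3 in each of 4 groups, 1 mouse per array. The hearts came from male C57BL6/J mice that entered the experiment at 6 to 7 weeks and were 5 months old when studied. Control mice received vehicle (C) or pargyline (C + P), and diabetic mice received vehicle (D) or pargyline (D + P). Diabetes was induced with intraperitoneal streptozotocin at 50 mg/kg on each of 5 days and was accepted at a glucose of at least 17 mM. Pargyline, an inhibitor of the monoamine oxidases MAO-A and MAO-B, was dosed at 50 mg/kg daily over 12 weeks. In heart tissue, a change in the number of cells of a type and a change in RNA per cell cannot be told apart.

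A negative interaction means that a gene was lower in diabetes, relative to its own controls, with pargyline than without it. Streptozotocin destroys the insulin-producing beta cells, and a heart that lacks insulin turns from glucose to fatty acids, a shift in which the nuclear receptor PPAR-alpha takes part. Monoamine oxidases sit in the outer mitochondrial membrane, break down catecholamines and serotonin, and release hydrogen peroxide as they do so. Immediate early genes encode transcription factors, phosphatases and other regulators that are transcribed within minutes of a stimulus such as adrenergic or growth factor signalling.

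Of 30859 probes tested with limma, 2 passed a Benjamini-Hochberg adjusted p of 0.05 for the interaction, both negative (0.00648% of the probes). They measured *Nr4a1*, an orphan nuclear receptor, and *Egr1*, a zinc-finger transcription factor. Both were high in C + P and low in the other groups. An unadjusted p under 0.05 was reached by 2170 probes (7.03%), where the threshold alone would give 1543. Per gene, taking the brightest probe of each of 16316 genes, 3.27% had a positive and 2.91% a negative interaction at that unadjusted threshold. These shares are the background for the gene lists, in which such genes are called nominal.

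Promoters of immediate early genes are shown because the letters bound by CREB and related factors recur in them. The 250 bases before the annotated start are given for the 3 genes with the smallest interaction p whose stretch carried TGACG or its complement CGTCA, printed 5′ to 3′ with those letters in capitals (RefSeq, GRCm38.p6). *Nr4a1* held 4 matches at chr15:101266596-101266845, *Apold1* held 1 at chr6:134981751-134982000 and *Egr2* held 2 at chr10:67537619-67537868, all on the plus strand. The promoters of *Egr1* and *Ier2* were not analysed here.
Nr4a1: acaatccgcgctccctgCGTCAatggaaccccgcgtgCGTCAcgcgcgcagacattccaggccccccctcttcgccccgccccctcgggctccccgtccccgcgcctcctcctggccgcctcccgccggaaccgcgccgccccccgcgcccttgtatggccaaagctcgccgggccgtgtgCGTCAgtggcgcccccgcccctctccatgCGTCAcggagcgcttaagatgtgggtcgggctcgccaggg
Apold1: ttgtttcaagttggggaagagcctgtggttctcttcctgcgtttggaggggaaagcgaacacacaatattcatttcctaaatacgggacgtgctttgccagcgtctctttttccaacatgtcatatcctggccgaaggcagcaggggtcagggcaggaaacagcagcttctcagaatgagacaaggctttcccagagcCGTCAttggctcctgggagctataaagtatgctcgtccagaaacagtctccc
Egr2: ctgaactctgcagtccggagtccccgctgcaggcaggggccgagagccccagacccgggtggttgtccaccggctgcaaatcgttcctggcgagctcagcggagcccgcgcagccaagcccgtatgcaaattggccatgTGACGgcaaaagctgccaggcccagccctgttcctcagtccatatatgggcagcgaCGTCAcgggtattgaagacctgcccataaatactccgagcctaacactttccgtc
From 250 bases before to 50 bases after the start, on either strand, 24 of the 39 immediate early genes with a promoter entry held TGACG (61.5%), against 6228 of 27025 genes (23%). The 27025 are all genes with a promoter entry, not only those tested on the arrays. Interferon-induced and MHC genes held TGACG in 11 of 34 (32.4%). The palindrome TGACGTCA, which contains TGACG, was held by 5 of 39 (*Btg2*, *Dusp1*, *Errfi1*, *Maff* and *Plk2*), against 2.03% of all genes. The CArG box, the letters that serum response factor binds, was held by 4 of 39 (*Dusp5*, *Egr2*, *Srf* and *Zfp36*), against 1.81%. A match is a run of letters and was not tested as a binding site.

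*Nr4a1* was at 8.42, 8.49 and 8.44 in the C hearts, 12.73, 12.45 and 11.62 in the C + P hearts, 9.42, 8.85 and 8.45 in the D hearts and 8.50, 8.66 and 8.81 in the D + P hearts, on the log2 intensity scale. The lowest C + P array stood above the highest of the other 9. The diabetes difference was 0.46 ± 0.30 (SE) without pargyline and −3.61 ± 0.30 with it, and the interaction was −4.07 ± 0.42 on the log2 scale (95% interval −5.0 to −3.14, limma adjusted p = 0.0221).

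*Egr1* was at 7.91, 7.91 and 8.43 in the C hearts, 12.37, 11.60 and 11.74 in the C + P hearts, 7.76, 7.97 and 7.22 in the D hearts and 8.05, 7.86 and 7.63 in the D + P hearts. Again no array of another group reached those of C + P. The diabetes difference was −0.43 ± 0.27 without pargyline and −4.05 ± 0.27 with it, which gave an interaction of −3.62 ± 0.38 (95% interval −4.45 to −2.79, limma adjusted p = 0.0221). Leaving out 1 array lost the call of *Nr4a1* in 10 of 12 cases, all but C + P replicate 3 and D replicate 3, and that of *Egr1* in 11 of 12, all but D replicate 3. The interactions then ranged from −4.40 to −3.81 for *Nr4a1* and from −3.82 to −3.38 for *Egr1*, and over all settings run the limma adjusted p went from 0.00145 to 0.642 for *Nr4a1* and from 0.00175 to 0.642 for *Egr1*.

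**Figure D1:**
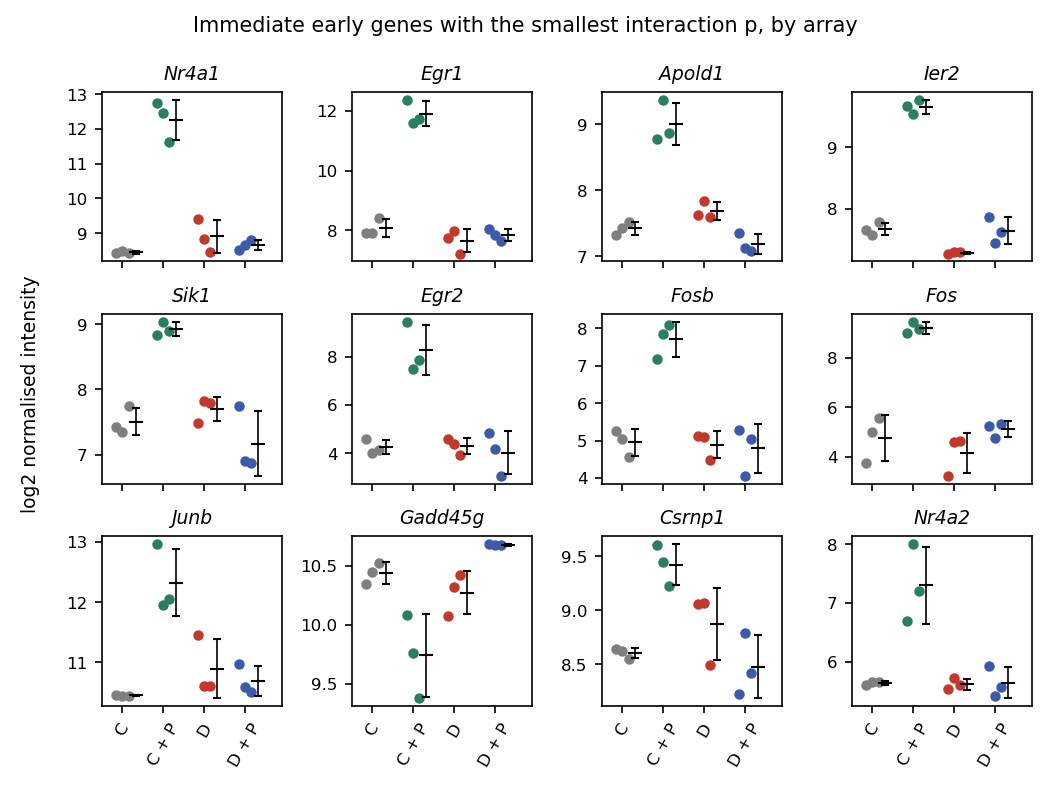
Log2 normalised intensity of the 12 immediate early genes with the smallest interaction p. Each point is 1 array, the bar beside the points is the group mean ± SD (n = 3), and each panel has its own vertical scale. All 3 C + P arrays lie above the other 9 in every panel but that of *Gadd45g*, where the D + P arrays are the highest.

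Of the 48 immediate early genes tested, 21 had a negative and 2 a positive nominal interaction, and 39 lay below 0. The median interaction of the list was −0.94, beside −0.02 over all genes, and it stayed below 0 in the 21 other settings in which it was computed (−0.99 to −0.44, the last with normexp background correction). The median difference was −0.02 between D and C and −0.56 between D + P and C + P. In D + P against C + P, 24 of the 48 were lower and 3 higher at an unadjusted p under 0.05, where 4.13% and 3.70% of all genes were. Of the 12 genes that fell past the adjusted threshold there (0.0735% of all genes), 8 belonged to this list. That comparison is part of the interaction and is not separate evidence. In D against C, 5 of the 48 were lower and 2 higher at an unadjusted p under 0.05, beside 4.84% and 5.31% of all genes.

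*Fos*, whose protein pairs with Jun in the AP-1 factor, was at 3.76, 4.99 and 5.59 in the C hearts, 9.0, 9.45 and 9.16 in the C + P hearts, 3.23, 4.61 and 4.63 in the D hearts and 5.26, 4.75 and 5.34 in the D + P hearts. Its probe was well above background on 3 of 3 C + P arrays, on 1 of 3 C arrays and on 0 of 3 in D and in D + P. C + P was at least 16.0-fold higher than D + P and at least 14.1-fold higher than D, where the bound sets C + P against the lowest signal that was well above background on the dim arrays.

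*Egr2*, a relative of *Egr1*, was at 4.60, 4.02 and 4.15 (C), 9.44, 7.47 and 7.87 (C + P), 4.60, 4.39 and 3.93 (D) and 4.84, 4.18 and 3.06 (D + P). It was well above background on the 3 C + P arrays and on no other, and C + P was at least 10.9-fold higher than C, 7.34-fold higher than D and 9.15-fold higher than D + P. *Fosb*, another partner of Jun, was well above background on 2 of 3 C arrays, on 3 of 3 C + P arrays and on 0 of 3 in D and in D + P, and C + P was at least 6.02-fold higher than D + P. The interactions of *Fos*, *Egr2* and *Fosb* (−3.46, −4.29 and −2.85 on the log2 scale, limma adjusted p = 0.444, 0.309 and 0.309) rest on values that were not well above background in some groups and did not pass. All 3 genes fell in D + P against C + P (limma adjusted p = 0.0193, 0.0254 and 0.0254).

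*Ier2*, a nuclear protein induced with *Fos*, was well above background on every array, at 7.65, 7.58 and 7.78 (C), 9.68, 9.54 and 9.76 (C + P), 7.27, 7.30 and 7.29 (D) and 7.87, 7.44 and 7.62 (D + P). C + P was above and D below all other arrays, and the interaction was −1.63 (limma adjusted p = 0.0884). A second, dim probe of *Ier2* gave 0.22. *Apold1*, an early response gene of endothelium whose promoter is printed above, averaged 7.42 (C), 9.01 (C + P), 7.68 (D) and 7.19 (D + P), an interaction of −2.08 (limma adjusted p = 0.0740). Neither passed the interaction, whereas both fell in D + P against C + P (limma adjusted p = 0.000810 and 0.00593). *Sik1*, a kinase induced by cAMP, had an interaction of −1.95 (limma adjusted p = 0.309) and also fell in D + P against C + P (limma adjusted p = 0.0346).

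*Junb*, *Nr4a2*, *Csrnp1*, *Zfp36*, *Errfi1*, *Dusp5*, *Dusp1*, *Fosl2*, *Btg2*, *Ccn1*, *Maff*, *Ccn2* and *Plk3* complete the 21, with interactions from −2.07 (*Junb*) to −0.94 (*Plk3*). They include phosphatases that switch off MAP kinases (*Dusp1* and *Dusp5*), a protein that destabilises inflammatory messenger RNA (*Zfp36*) and an inhibitor of the EGF receptor (*Errfi1*). All 3 C + P arrays lay above the other 9 for 23 of the 48 genes, beside 1.49% of all genes.

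Other members lay below 0 without a nominal interaction, among them *Klf4* (−1.70), *Atf3* (−1.66), *Nfkbiz* (−1.03), *Srf* (−0.95), *Myc* (−0.90) and *Nr4a3* (−0.71). Some lay near 0 or above it. *Gadd45g*, a growth arrest gene, averaged 10.44 (C), 9.74 (C + P), 10.27 (D) and 10.68 (D + P), an interaction of 1.11, and *Plk2*, a stress kinase, had 1.08. *Jun*, the partner of *Fos*, averaged 11.76 (C), 12.30 (C + P), 10.97 (D) and 11.81 (D + P) with C + P above and D below all other arrays, and its interaction was 0.30 (95% interval −0.49 to 1.08). *Klf2*, *Klf6*, *Per1*, *Arc* and *Ier5* had interactions between −0.11 and 0.06.

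The layout of the arrays touches these values. C and D lay on 1 slide and scan, and C + P and D + P on another, so a shift that a slide adds to all its arrays cancels in the interaction. D + P shared its slide with C + P. Non-diabetic hearts filled row 1 of each slide and diabetic hearts row 2, which leaves row and diabetes confounded. Repeated spots spread most on replicate 1 of each group (median coefficient of variation 15.8% for C, 22.3% for C + P, 35.3% for D and 25.7% for D + P). Without those 4 arrays, an alternative chosen after seeing the data, 22 immediate early genes were negative and 2 positive at an unadjusted p under 0.05 and the list median was −0.80, but 0 probes passed limma's adjusted threshold (2536 at an unadjusted p under 0.05).

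Platelet markers had negative interactions too. Of 8 markers 5 were tested, and *Itgb3*, well above background on every array, had a nominal interaction of −1.07. *Gp9* was well above background on 1 of 3 D and 0 of 3 D + P arrays, so only a bound is given, at least 3.51-fold higher in C + P than in D + P. *Ppbp*, a platelet chemokine well above background on 2 of 3 D and 1 of 3 D + P arrays, had −2.13 and was at 7.00, 7.87 and 7.47 (C), 8.44, 8.67 and 7.52 (C + P), 6.08, 6.55 and 6.59 (D) and 5.46, 5.53 and 4.11 (D + P). D + P lay below all other arrays, and *Ppbp* fell in D + P against C + P (limma adjusted p = 0.0336). *Pf4*, the brightest platelet marker, had −0.20, while *Gp1ba*, *Gp5* and *Itga2b* did not pass the filter on low values. The summed linear intensity of the 5 was 2782 to 3146 (C), 3147 to 3824 (C + P), 2427 to 5665 (D) and 2075 to 2539 (D + P). The list median, −2.05, was the value of *Gp9*, which rests on arrays not well above background. It was −0.91 without D replicate 1 and −0.63 over the 2 markers left when only probes well above background were used.

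Of 8 neutrophil markers 5 were tested, and the calprotectin subunits *S100a8* and *S100a9* had nominal interactions of −3.11 and −2.13. *S100a8* was well above background on 2 of 3 arrays of each group but C + P, and its value ranged from −3.57 to −1.45 over the other settings. The list median interaction was −0.78. Against C + P, 4 of the 5 were lower in D + P at an unadjusted p under 0.05 (4.13% of all genes). The median difference of the 5 was −1.03, and 0 passed limma's adjusted threshold. The linear sum of the 5 was 40299 to 44080 (C), 33375 to 50015 (C + P), 21000 to 36300 (D) and 37669 to 47563 (D + P). On that scale D lay below C and the pargyline groups overlapped. Other, brighter markers of the list set that sum, as *S100a9* and *S100a8* averaged 8.52 and 6.17 on the log2 scale. *S100a9* went the other way, 1.01 higher in D than in C. Of 5 erythroid markers tested 1 had a nominal interaction, *Slc4a1*, the anion exchanger of red cells, at 5.35, 5.94 and 5.07 (C), 7.32, 6.68 and 7.56 (C + P), 5.38, 5.09 and 5.43 (D) and 4.85, 5.21 and 5.69 (D + P). C + P lay above all other arrays, at least 3.38-fold higher than D, in which 0 of 3 arrays had it well above background. The globin genes *Hba-a1* and *Hbb-bt* had −0.07 and −0.25. Macrophage markers, 11 of 12 tested, had 0 nominal interactions. At an unadjusted p under 0.05, 3 were lower in D than in C (4.84% of all genes) and 6 in D + P than in C + P (4.13%). The macrophage markers summed to 19109 to 22666 (C), 19635 to 30663 (C + P), 14594 to 18943 (D) and 15027 to 16409 (D + P), so that each diabetic group lay below its controls. The part of blood cells and macrophages in the immediate early result was not tested.

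Among 28 chemokines and cytokines 5 had a negative and 1 a positive nominal interaction, with a median of −0.14 (−0.32 to −0.07 over the other settings). *Cxcl1*, a neutrophil attractant, was at 5.91, 6.09 and 6.48 in the C hearts, 9.04, 8.46 and 8.62 in the C + P hearts, 5.78, 5.55 and 5.43 in the D hearts and 6.17, 6.26 and 6.37 in the D + P hearts. C + P was above and D below all other arrays, and the interaction was −1.87 (limma adjusted p = 0.266). *Ccl2* and *Ccl7*, attractants of monocytes, had −1.45 and −1.97, with C + P above all other arrays. *Gdf15*, a stress cytokine, had −1.60. *Cxcl12*, made by stromal cells, was the positive one at 0.92, and *Cxcl13* was well above background on 0 arrays.

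*Thbs1*, a matrix protein that platelets also release, was at 6.03, 5.92 and 5.55 (C), 8.24, 7.72 and 7.88 (C + P), 5.81, 5.84 and 6.26 (D) and 5.37, 3.63 and 5.29 (D + P). C + P lay above and D + P below all other arrays, and the probe was well above background on 1 of 3 D + P arrays. The interaction was −3.32 (limma adjusted p = 0.309), and a second probe gave −2.25. It was 1 of 3 nominal genes among 44 of collagens and matrix, all negative, with *Eln* (elastin) and *Fbn1* (fibrillin).

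**Figure D2:**
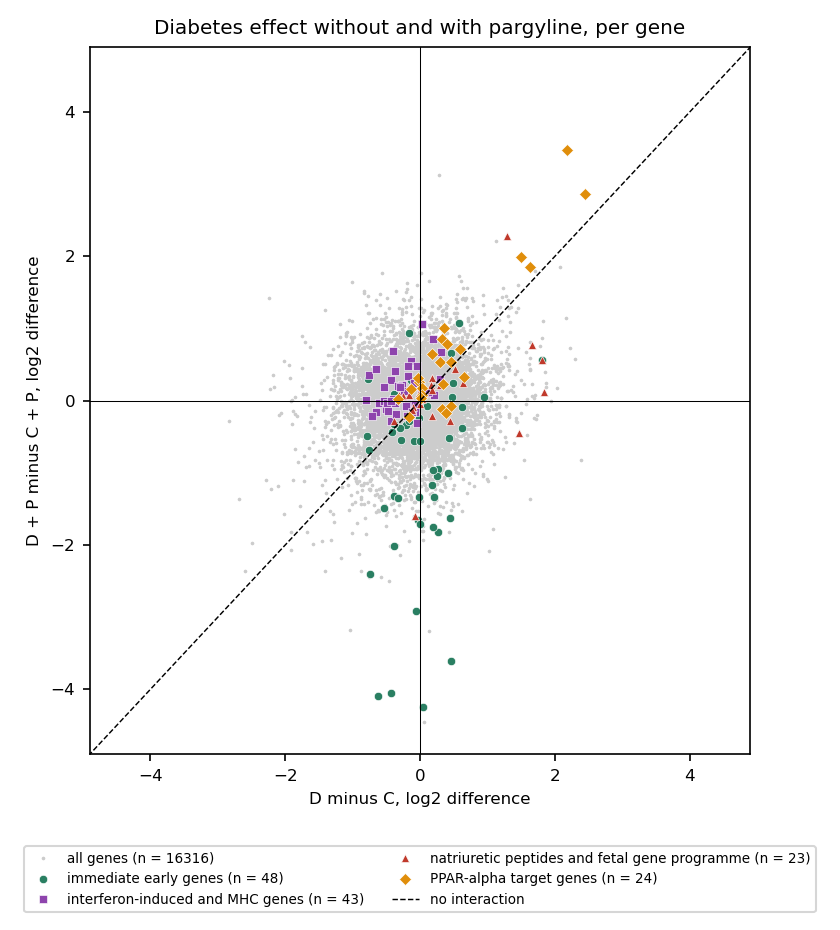
Log2 difference between D and C (horizontal) and between D + P and C + P (vertical) for 16316 genes, each by its brightest probe. Genes on the dashed line have no interaction. Many immediate early genes lie below the line, most interferon-induced and MHC genes above it, and the PPAR-alpha targets with large differences lie at the upper right, on both axes above 0.

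Across all genes the diabetes differences with and without pargyline, which share no array, had a Pearson r of 0.158 and a Spearman rho of 0.130 over 16316 genes, which are not independent replicates. The 867 genes higher in D than in C at an unadjusted p under 0.05 had a median of 0.60 there and of 0.16 with pargyline, and 71.4% kept their sign. The 789 lower genes had medians of −0.74 and −0.08, and 58.9% kept their sign. Chosen with pargyline, the 604 higher genes had 0.66 there and 0.19 without it, and the 674 lower genes −0.72 and −0.16. The first median of each pair was fixed by the choice.

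For most genes with a nominal interaction, 282 of the 474 negative and 332 of the 534 positive ones, no group had all 3 of its arrays beyond the other 9. Among the rest of the negative ones, C + P was highest for 57, D highest for 62, D + P lowest for 55 and C lowest for 32. Among the rest of the positive ones, D was lowest for 105, D + P highest for 65, C highest for 22 and C + P lowest for 16. Over all genes, C + P was highest for 1.49% and lowest for 1.06%, D for 2.50% and 1.73%, C for 0.644% and 0.711%, and D + P for 0.821% and 0.815%. The immediate early genes made up 23 of the 243 genes with C + P highest.

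Of 43 interferon-induced and MHC genes tested, 6 had a positive and 0 a negative nominal interaction, 37 lay above 0 and 6 below. The median was 0.44, beside −0.02 over all genes, and ranged from 0.13 to 0.58 over the other settings. In D against C, 9 of 43 were lower (4.84% of all genes) and 0 higher at an unadjusted p under 0.05, and with pargyline 4 were higher (3.70%) and 0 lower. None of these genes passed limma's adjusted threshold.

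Promoters of this group are shown with the core of the interferon-stimulated response element, GAAA, any 2 bases and GAAA, or its complement, in capitals. They are the 3 members with the smallest interaction p whose 250 bases before the start held it (RefSeq, GRCm38.p6). *Iigp1*, whose interaction p was smaller than those of *Gbp3* and *Ifit3*, was not considered for this display. *Igtp* held 1 at chr11:58199306-58199555, *Gbp3* held 2 that overlap at chr3:142559794-142560043 and *Ifit3* held 2 at chr19:34583279-34583528, all on the plus strand.
Igtp: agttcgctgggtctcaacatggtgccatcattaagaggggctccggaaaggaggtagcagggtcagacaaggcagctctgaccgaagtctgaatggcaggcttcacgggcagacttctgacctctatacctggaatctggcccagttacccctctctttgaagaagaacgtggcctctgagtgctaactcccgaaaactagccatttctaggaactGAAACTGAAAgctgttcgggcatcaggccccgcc
Gbp3: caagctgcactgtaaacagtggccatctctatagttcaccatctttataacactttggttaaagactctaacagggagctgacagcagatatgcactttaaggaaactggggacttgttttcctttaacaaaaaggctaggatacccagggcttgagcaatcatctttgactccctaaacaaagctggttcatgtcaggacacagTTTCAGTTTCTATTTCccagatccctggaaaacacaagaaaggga
Ifit3: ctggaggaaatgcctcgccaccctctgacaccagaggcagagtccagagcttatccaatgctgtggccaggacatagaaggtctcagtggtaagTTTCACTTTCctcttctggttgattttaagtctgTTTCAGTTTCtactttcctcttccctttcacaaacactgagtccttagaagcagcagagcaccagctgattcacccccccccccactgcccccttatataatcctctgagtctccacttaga
From 250 bases before to 50 after the start, on either strand, 15 of the 34 members with a promoter entry held the element (44.1%), against 1079 of 27025 genes (3.99%) and 2 of 39 immediate early genes.

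*Igtp*, an interferon-induced GTPase, was at 10.80, 10.46 and 10.10 (C), 9.71, 10.04 and 9.65 (C + P), 9.57, 9.93 and 9.59 (D) and 10.10, 10.15 and 10.24 (D + P). C and D did not overlap, and the D + P arrays lay above those of C + P. The interaction was 1.11 ± 0.28 (limma adjusted p = 0.565).

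*Iigp1*, *H2-K1*, *Gbp3* and *Ifit3*, which encode a GTPase, a classical MHC class I chain, a guanylate-binding protein and an antiviral protein, had interactions of 0.79, 1.09, 1.09 and 0.68. The C + P arrays were at 12.34, 13.50 and 13.26 for *H2-K1* and at 8.04, 9.28 and 9.23 for *Gbp3*, lowest on replicate 1. Over the other settings these interactions ranged from 0.36 to 1.33 for *H2-K1* and from 0.58 to 1.31 for *Gbp3*. *Tap1*, the peptide transporter of antigen presentation, was lower on the D arrays than on all others, averaging 8.48 (C), 8.37 (C + P), 7.68 (D) and 8.39 (D + P). *Isg15* and *Usp18*, classical interferon targets, had −0.08 and 0.00. The level of the list varied within C, at 0.34, 0.07 and −0.17 from the mean of all arrays, and without C replicate 1 its median interaction was 0.26 with 2 nominal genes. It was 0.13 with 3 positive and 1 negative without the noisiest array of each group, and 0.30 with 2 under scaling to the 75th percentile.

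**Figure D3:**
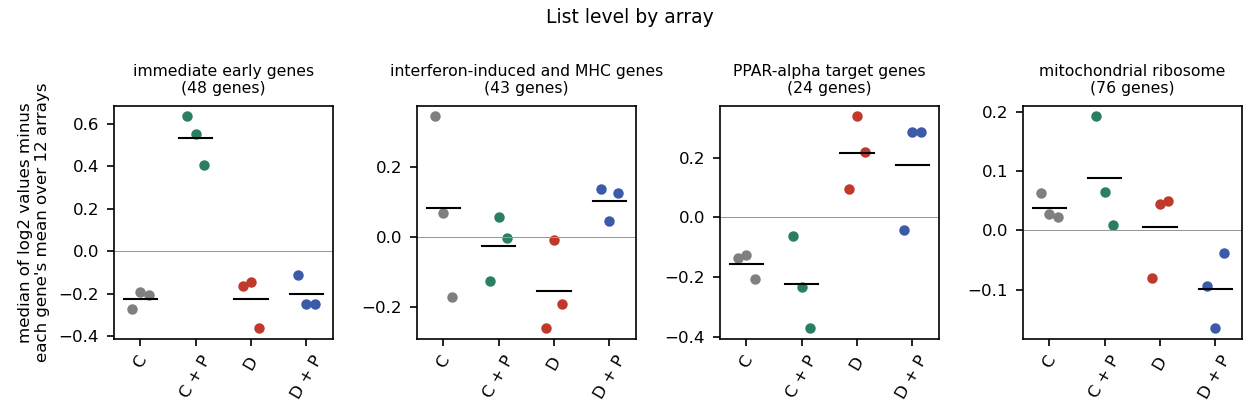
Level of 4 gene lists on each array, as the median over genes of the log2 value minus that gene's mean over 12 arrays. Points are arrays, bars are group means, and each panel has its own scale. Immediate early genes are high in C + P. PPAR-alpha targets are higher in D than in C and mostly higher with diabetes under pargyline too. In the interferon-induced and MHC panel D lies below D + P. In the mitochondrial ribosome panel D + P lies below C and C + P. The remaining pairs of groups in those panels overlap.

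Of the 23 genes of the natriuretic peptides and fetal gene programme 5 had a negative and 0 a positive nominal interaction, although the list median was −0.04 and took either sign over the other settings (−0.23 to 0.02). *Nmrk2*, the muscle kinase that makes NAD from nicotinamide riboside, was at 7.14, 7.28 and 7.17 in the C hearts, 8.85, 8.38 and 8.54 in the C + P hearts, 9.37, 8.86 and 8.90 in the D hearts and 8.76, 8.76 and 8.60 in the D + P hearts. C lay below and D above all other arrays. *Nmrk2* rose in D against C by 1.85 ± 0.18 (limma adjusted p = 0.0253) and differed by 0.12 ± 0.18 between D + P and C + P, an interaction of −1.73 (95% interval −2.29 to −1.16, limma adjusted p = 0.234).

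*Nppb*, which encodes B-type natriuretic peptide, was at 13.35, 13.21 and 13.42 (C), 14.86, 14.18 and 13.80 (C + P), 15.40, 14.42 and 14.55 (D) and 13.16, 14.09 and 14.25 (D + P). D lay above C without overlap, while D + P and C + P overlapped. The interaction was −1.91 ± 0.51 (limma adjusted p = 0.566), and a second probe gave −1.83. *Nppa*, the atrial natriuretic peptide, was at 13.41, 13.93 and 13.76 (C), 14.26, 14.29 and 14.74 (C + P), 15.52, 15.14 and 15.45 (D) and 15.47, 15.57 and 14.56 (D + P). It was higher in diabetes by 1.67 without and 0.77 with pargyline, neither past the adjusted threshold, and its interaction was −0.90 (limma adjusted p = 0.704). In *Nmrk2*, *Nppb* and *Nppa* the C + P arrays lay above the C arrays, a difference that cannot be told apart from the slide.

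*Acta1*, the skeletal actin of the fetal heart, averaged 11.70 (C), 12.42 (C + P), 11.63 (D) and 10.82 (D + P), an interaction of −1.52. It is also a skeletal muscle marker. Such markers, 7 of 8 tested, had 2 negative nominal interactions, *Acta1* and *Tnnt3* (−0.68). Their median was −0.35 (−0.63 to −0.24 over the other settings), with 6 below 0. The part of skeletal muscle in the *Acta1* values was not tested. *Ccn2*, a matricellular growth factor that is also on the immediate early list, was at 10.30, 10.36 and 10.30 (C), 11.67, 10.87 and 10.70 (C + P), 12.76, 12.19 and 11.45 (D) and 11.08, 12.07 and 11.77 (D + P). C lay below all other arrays and the interaction was −1.26. Of 8 atrial markers 6 were tested, and *Myl7*, at −1.98, was well above background on 1 of 3 arrays in each group. Their summed intensity was 11621 to 16477 (C), 20402 to 28385 (C + P), 36820 to 47581 (D) and 24649 to 49294 (D + P), a sum that holds *Nppa*. The part of atrial tissue in the *Nppa* values was not tested.

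**Figure D4:**
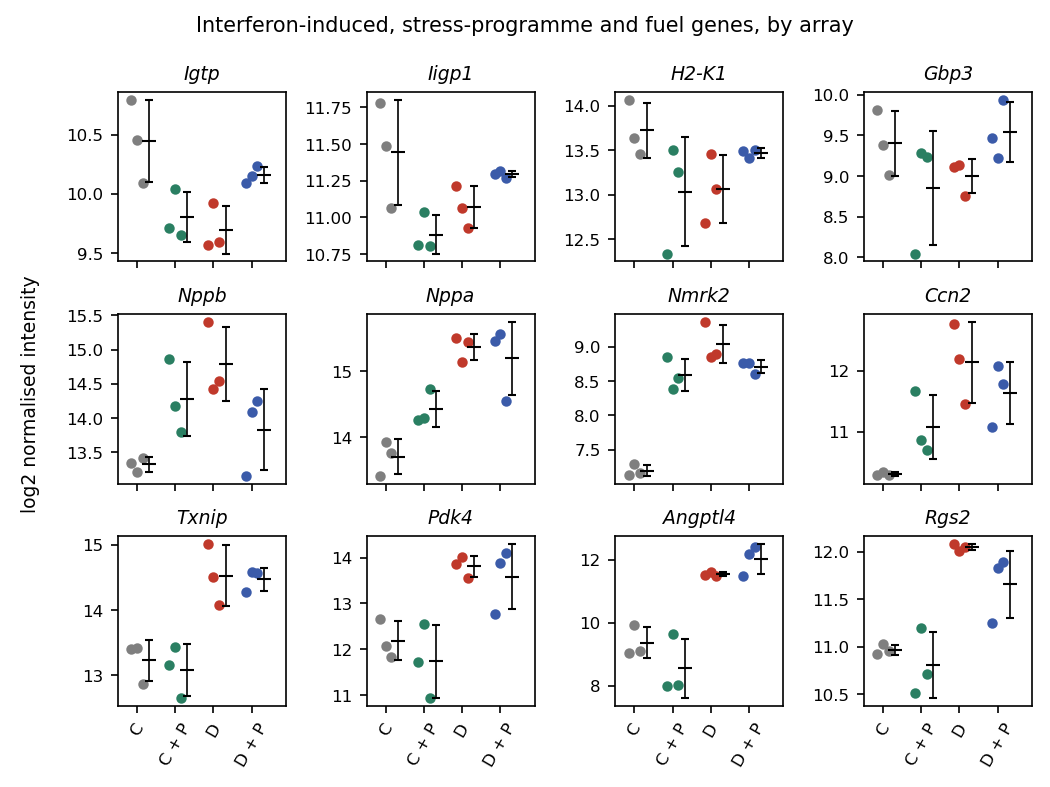
Log2 normalised intensity of 12 genes by array, with the group mean ± SD (n = 3) beside the points and a separate scale for each panel. The top row holds interferon-induced and MHC genes, the middle row stress genes with their lowest group mean in C, and the bottom row genes of fuel use and signalling that averaged higher in both diabetic groups than in their controls.

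*Txnip*, *Pdk4* and *Rgs2* averaged higher in each diabetic group than in its controls, and none passed limma's adjusted threshold in either comparison. *Txnip*, which is induced by glucose and restrains its uptake, was at 13.41, 13.42 and 12.87 (C), 13.17, 13.43 and 12.65 (C + P), 15.01, 14.50 and 14.07 (D) and 14.27, 14.58 and 14.57 (D + P). Each diabetic group lay above its controls without overlap. The differences were 1.30 and 1.39 and the interaction 0.09, whose 95% interval (−0.78 to 0.96) leaves room for a sizeable dependence either way. *Pdk4*, the kinase that shuts pyruvate out of oxidation, had differences of 1.63 and 1.85 and an interaction of 0.22 (95% interval −1.14 to 1.57). *Rgs2*, a brake on G-protein signals, had 1.08 and 0.85 and an interaction of −0.23 (95% interval −0.90 to 0.43). The signs of the *Txnip* and *Pdk4* interactions turned in some settings.

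*Angptl4*, an inhibitor of lipoprotein lipase, was at 9.04, 9.94 and 9.11 (C), 7.97, 9.63 and 8.03 (C + P), 11.51, 11.62 and 11.48 (D) and 11.48, 12.17 and 12.40 (D + P). Every diabetic array lay above every non-diabetic one. It rose past the adjusted threshold in D + P against C + P, by 3.47 ± 0.43 (limma adjusted p = 0.0254), and its interaction was 1.29 (95% interval −0.05 to 2.64). Of the 24 PPAR-alpha targets 0 had a nominal interaction. Their median diabetes difference was 0.33 without and 0.33 with pargyline, with 7 and 9 higher at an unadjusted p under 0.05 (5.31% and 3.70% of all genes) and 0 lower. The median of their interactions was 0.23, and 0.04 with 75th percentile scaling. Of 31 genes of fatty acid oxidation 0 had a nominal interaction, and their median differences were 0.14 without and 0.18 with pargyline.

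A panel of genes was also assayed by qRT-PCR in the study, and its array values are given here. *Hif1a*, the oxygen-sensitive transcription factor, averaged 9.86 (C), 10.09 (C + P), 10.99 (D) and 10.32 (D + P) on its brightest probe, an interaction of −0.91 (limma adjusted p = 0.688), while its dimmer probes gave 1.16 and −0.08. *Slc2a4*, the insulin-responsive glucose transporter, had −0.18 and *Prdx4*, a peroxidase of the secretory pathway, −0.24. *Igf1r*, *Grb10*, *Inpp4a*, *Mapk10*, *Elk1* and *Rps6ka2*, assayed as microRNA targets, had no nominal interaction on their brightest probes, with values from −0.15 to 0.45. The dimmer probes of *Grb10* gave 0.60 and 1.04, the latter nominal. Those of the other microRNA targets ranged from −0.51 (*Elk1*) to 1.02 (*Igf1r*), none nominal. *Maoa*, a target of pargyline, had −0.32 (95% interval −1.30 to 0.67) at a low signal, and *Maob* had 0.23 (−0.34 to 0.80). Of the 27 monoamine handling genes tested 2 were negative and 0 positive. *Adra1a*, an alpha-1 adrenergic receptor, was at 5.56, 5.32 and 5.37 (C), 5.44, 5.57 and 5.57 (C + P), 6.17, 6.04 and 6.06 (D) and 4.44, 5.16 and 5.01 (D + P), with D above and D + P below all other arrays, and had an interaction of −1.34 (limma adjusted p = 0.472). In D + P, 1 of 3 arrays had *Adra1a* well above background. *Grk5*, a kinase that desensitises such receptors, had −0.71.

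**Figure D5:**
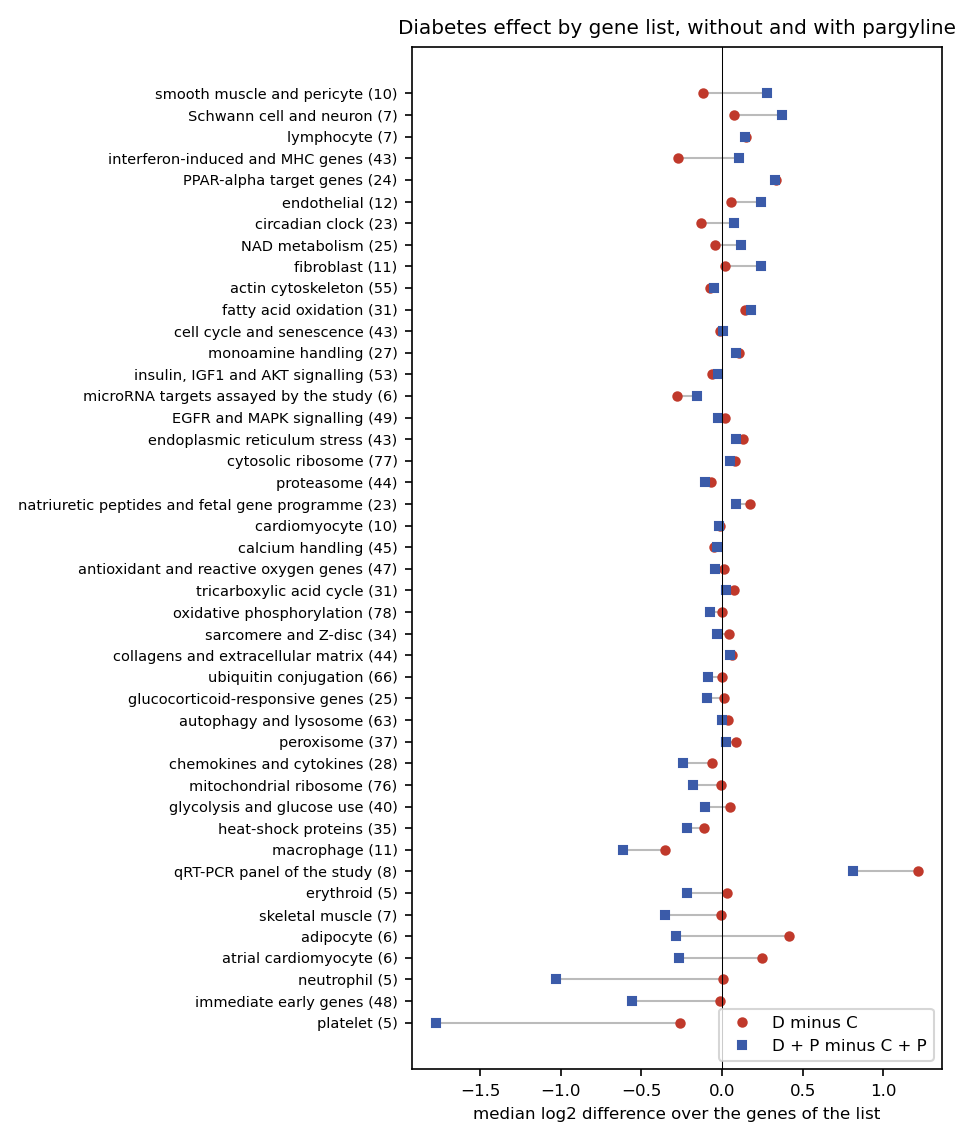
Median log2 difference over the genes of each list, between D and C (circles) and between D + P and C + P (squares), for the 44 lists with at least 5 tested genes (number in brackets). Lists are ordered by the median interaction, which is not exactly the distance between the symbols. Platelet markers and immediate early genes are at the bottom, and most pathways have both symbols near 0.

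The pathways of mitochondria had medians near 0 and few nominal genes. Of 78 subunits of oxidative phosphorylation 0 had a positive and 1 a negative nominal interaction (*Ndufa5*, of complex I, −0.52), and the median was −0.07, or −0.34 with 75th percentile scaling, under which all genes had −0.08. Of 76 proteins of the mitochondrial ribosome 3 were negative (*Mrpl1* −0.71, *Mrps14* −1.44 and *Mrpl44* −0.94), 59 lay below 0 and the median was −0.16, or −0.38 with that scaling. Of 77 proteins of the cytosolic ribosome 0 were nominal. The citric acid cycle had 1 positive and 1 negative of 31, *Pck2*, the mitochondrial PEP carboxykinase, at 0.56 and *Dld*, a subunit of pyruvate dehydrogenase, at −0.77.

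Of 44 proteasome subunits 0 had a nominal interaction. Of 66 genes of ubiquitin conjugation 1 was positive (*Traf6*, a ligase of inflammatory receptors, 0.80) and 2 were negative (the conjugating enzymes *Ube2l3*, −0.92, and *Ube2d3*, −0.49). The dimmer probes of *Traf6* and *Ube2l3* gave −0.24 and −0.15. Of 63 genes of autophagy and the lysosome 1 was positive (*Atg16l1*, which acts in membrane growth, 1.61 on its brightest probe and 1.11 and −0.14 on its dimmer ones) and 0 negative. On that brightest probe the C + P arrays were at 9.63, 11.57 and 11.70, and the interaction ranged from 0.95 to 1.98 over the other settings. The endoplasmic reticulum stress list had 1 positive (*Trib3*, a pseudokinase, 0.78) and 3 negative of 43, among them *Ppp1r15a*, a phosphatase subunit that restarts translation, at −0.55. For heat-shock proteins 1 of 35 was negative (*Hsph1*, −0.93 on its brightest probe, −0.42 and 1.59 on its dimmer ones). The list median was −0.19 and stayed below 0 in the 21 other settings (−0.31 to −0.13). All C + P arrays lay above the others for 5 of 35 (1.49% of all genes). In D + P against C + P, 8 of 35 were lower (4.13% of all genes) and 0 higher (3.70%) at an unadjusted p under 0.05.

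Insulin, IGF1 and AKT signalling had 0 positive and 1 negative of 53 (*Irs2*, an insulin receptor substrate, −1.01, lowest in C). In D against C, 7 of the 53 were lower and 3 higher at an unadjusted p under 0.05 (4.84% and 5.31% of all genes), and 2 and 2 with pargyline (4.13% and 3.70%). *Rheb*, the activator of mTOR, averaged 15.49 (C), 15.54 (C + P), 14.64 (D) and 15.48 (D + P), with D below all other arrays on its brightest probe, and its interaction was 0.79 (95% interval −0.01 to 1.58). Its dimmer probe had 0.23 between D and C and an interaction of 0.04. *Egfr*, the receptor of epidermal growth factor, had −0.89 (95% interval −1.81 to 0.04). Of 34 sarcomere and Z-disc genes, 45 of calcium handling, 55 of the actin cytoskeleton and 47 of the antioxidant and reactive oxygen list 0 had a nominal interaction.

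In glycolysis and glucose use 3 of 40 were negative, the glucose transporter *Slc2a3* at −1.45 (well above background on 0 of 3 D + P arrays), the phosphofructokinase *Pfkp* at −0.70 and *Gfpt2*, of hexosamine synthesis, at −0.76. The cell cycle and senescence list had 2 positive and 4 negative of 43, and the negative ones include *Cdkn1a*, the p21 inhibitor of the cycle, at −1.38. The clock list had 2 positive and 2 negative of 23. *Hlf*, a clock output factor, had 1.47, *Clock* itself −1.13, and its partner *Arntl* −2.37 at a signal well above background on 0 of 3 arrays in C and in D + P.

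Smooth muscle and pericyte markers had 2 of 10 positive, *Myh11*, smooth muscle myosin, at 1.36 and *Abcc9*, a channel subunit of pericytes, at 0.63, with a list median of 0.50 (0.31 to 0.66 over the other settings). *Abcc9* was lower on the 3 D arrays than on the other 9. The summed intensity of the list was 24429 to 26900 (C), 21804 to 25378 (C + P), 20864 to 25065 (D) and 24850 to 25253 (D + P). Of 12 endothelial markers 1 was positive and 1 negative (*Kdr*, the VEGF receptor, 0.61, and *Cldn5*, a junction protein, −0.78). Fibroblast and lymphocyte markers had 0 of 11 and 0 of 7. All 10 cardiomyocyte markers were tested, summed to between 797470 and 978475 on every array, and 1 of 10 had a nominal interaction (*Nppa*).

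Between 23556 and 29231 of 59305 non-control spots per array were well above background, and 0 were saturated. The median standard error was 0.37 for an interaction and 0.27 for the difference between D and C, on the log2 scale, so the small number of arrays bounds what these comparisons can resolve.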

How the data were processed

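The members and gene lists were chosen with earlier results of these data known. The authors labelled 200 ng of RNA (integrity number over 7), hybridised single-colour Agilent arrays and extracted spots with Feature Extraction 12.0.0.7, per the file headers. The deposited scanner files hold background-subtracted intensity on a linear scale. A further deposited table, used as an alternative, holds intensity normalised by the authors. Probe coordinates in the scanner files are in mm9 and were not mixed with the promoter build.

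Here the scanner intensity was log2 transformed and quantile normalised over non-control probes. Outlier spots were set to missing, repeated spots averaged, and 2.03% of values that were not positive kept. A probe entered when it was flagged positive and significant on 50% or more of the arrays in all 4 groups (30859 of 56605). limma 3.58.1 (lmFit, eBayes) in R 4.3.3, with the data.table package (1.17.8), fitted 1 mean per group over all 12 arrays, two-sided, with Benjamini-Hochberg adjustment over all tested probes. The scripts were tested on simulated data. Names follow RefSeq GRCm38.p6 where the accession matched (20774 probes), otherwise the file.

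Groups were taken from the titles. Named genes are those that passed, the 2 with the largest moderated t in each list, the qRT-PCR and microRNA-target panels, *Maoa* and *Maob*. Other genes named, and the full per-array values of several, were chosen after their values were seen. A few genes that the rule would name are not reported here. Alternatives covered scaling, background correction, filters, weights, blocks, the methods' test and leaving out arrays. Figures were drawn with matplotlib 3.10.9 (numpy 2.4.6, pandas 2.3.3, Python 3.11.15).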

Additional observations from a re-analysis of the deposited data

Results flagged for a closer look

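The diabetes effect differed between mice with and without pargyline, by the test of the interaction itself, for *Nr4a1* (−4.07 on the log2 scale) and *Egr1* (−3.62), both with a limma adjusted p of 0.0221. In both, the 3 C + P arrays lay above the other 9. With 3 arrays per group, no search for single outlying arrays was made.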

How the results depend on the processing

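The adjusted threshold was passed by 14 probes for D + P against C + P, by 2 for D against C and by 2 for the interaction. In that order of comparisons, the counts that moved by over 1.5 times were 24 and, for the interaction, 5 with no filter on dim probes, 7 and, for the interaction, 4 with probes well above background only, and 69, 106 and 5 with array weights. For the interaction alone they were 4 with normexp, with values not positive set to missing, and with an intensity trend in the prior. The methods' test without moderation gave 1, 0 and 0 by Benjamini-Hochberg and by Bonferroni (2022, 3533 and 2046 at an unadjusted p under 0.05). Leaving out 1 array gave 5 to 33, 0 to 5 and 0 to 2 by limma, the 33 without D + P replicate 1, with 1426 to 3480 interactions at an unadjusted p under 0.05. Without the noisiest array of each group, chosen after seeing the data, limma gave 0, 0 and 0 (3526, 5077 and 2536 unadjusted). The cause of these moves was not tested, beyond the fewer probes or arrays that some settings have by construction.

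Replicate numbers in the titles did not pair the arrays. Same-numbered arrays had correlations of their deviations from −0.20 to 0.20 over 18 pairs, and 5 of 12 arrays correlated best with their own number. With a replicate block limma gave 8 calls for D + P against C + P (2209 unadjusted), 0 for D against C (3192 unadjusted) and 0 for the interaction (2115 unadjusted), and *Nr4a1* and *Egr1* had adjusted p of 0.129 and 0.137. Slide as a random block could not be fitted, since the groups determine the slide.

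Of 125 genes followed, 113 kept the sign of their interaction in the settings run. Without the noisiest arrays it turned for *Cd79b* (−0.15), *Inpp4a* (0.064), *Msln* (0.53), *Pparg* (0.15), *Psmb9* (−0.058) and *Rps6ka2* (−0.086). With array weights it turned for *Inpp4a* (0.024), *Msln* (0.32) and *Pdk4* (−0.19), with normexp for *Maoa* (0.019), and with 75th percentile scaling for *Txnip* (−0.16). Leaving out 1 array, the interaction ranged from −0.30 to 0.042 for *Grb10*, −0.000777 to 0.27 for *Igf1r*, −0.33 to 0.12 for *Inpp4a*, −0.64 to 0.0052 for *Maoa*, −0.59 to 0.60 for *Msln*, −0.18 to 0.63 for *Pdk4*, −0.46 to 0.11 for *Pparg*, −0.054 to 0.52 for *Ryr2* and −0.14 to 0.33 for *Txnip*. Of 45 list medians 23 kept their sign in all 21 settings.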
